A study of Mus musculus with 24 samples.

Results

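The mouse entries numbered miR-680 to miR-721 came into miRNA databases from the cloning and sequencing of small RNAs, and many were later questioned as true miRNAs. They were taken here as the Agilent array entries whose name has no star and a number from miR-680 up to miR-721, with any arm suffix. This gave 42 of the 566 mouse miRNAs on the array, with 20 spots each. Both arms of miR-693 were present. The starred entries miR-708* and miR-712* were left out by the rule.

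Mature miRNAs are short RNAs cut from a hairpin precursor, and the bases at their 5′ end, the seed, pair with target messenger RNAs. RNA fragments of other kinds can enter the same libraries. miR-720 is known to match a tRNA fragment and miR-712 lies in the spacer of the ribosomal RNA precursor. miR-702 was described as a mirtron, a miRNA whose hairpin is a spliced intron, while miR-708 is a conserved miRNA from an intron of the teneurin gene Tenm4.

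The study compared 2 pools of commercial mouse total RNA on several array platforms, of which the Agilent one-color arrays are described here. Reference 1 was made of equal amounts of RNA from testicle, ovary and embryos of 10 to 12 days. Reference 2 was made from liver, heart and lung. Each pool was hybridized as 2 aliquots, replicates 1 and 2, and all 4 arrays were on 1 slide. Per the methods, more arrays of each pool were hybridized, a single array failed quality control, and those used were drawn at random. As the 2 aliquots of a reference share 1 pool, their spread is technical, and so is what each p-value measures. A pool difference cannot be assigned to 1 of its tissues, and fewer cells of a type and less RNA per cell cannot be told apart. The tissue markers followed the labels. All 9 markers of testis, ovary and embryo were higher in Reference 1, by 0.70 to 3.41 on the log2 scale, and all 9 markers of heart, liver, lung and blood were lower, by -0.97 to -3.16. All 18 kept these directions under every alternative setting run, and none is among the numbered entries.

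RefSeq (GRCm38.p6) lists a mature sequence of the same name for 26 of the 42 entries, and only the separate 5p and 3p arms for 5 more. The 26 sequences run from 19 to 23 bases, with a GC share from 33.3% to 81.0%. They lie on 14 chromosomes, and 3 of them have several loci. No seed was shared between any of the 36 listed mature sequences. The sequences below belong to 4 of the small RNAs described in detail, and are given 5′ to 3′, with the seed (bases 2 to 8) in capitals. The array's miR-702 has no arm in its name, so both arms are shown.
mmu-miR-690: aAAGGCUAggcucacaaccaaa
mmu-miR-702-5p: gUGAGUGGggugguuggcaug
mmu-miR-702-3p: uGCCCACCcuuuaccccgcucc
mmu-miR-706: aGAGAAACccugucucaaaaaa
mmu-miR-721: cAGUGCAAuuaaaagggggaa

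These 4 lie within annotated genes. miR-690 is at chr16:28599940-28599961 (minus strand) within the span of Fgf12, which encodes a fibroblast growth factor homologue. miR-702 is at chr5:136991442-136991541 (plus strand, from the first base of the 5p arm to the last of the 3p arm) within Plod3, a collagen lysyl hydroxylase gene. miR-706 is at chr6:120034290-120034311 (minus strand) within Wnk1, which encodes a kinase of ion transport control. miR-721 is at chr5:136375777-136375797 (minus strand) within Cux1, a homeobox transcription factor gene. The annotation used gives gene spans only, so exon and intron were not separated.

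Most of these small RNAs gave no signal above background in either pool. Only 9 of the 42 had at least 1 spot that the scanner software called well above background on at least 1 array, against 51.1% of all mouse miRNAs. With at least 50% of the spots required on an array, 6 of 42 passed, against 42.2% of all mouse miRNAs. On each array, 32 to 37 of the 42 had a median intensity below that of the 288 negative control spots. The control median was 48 and 44 units in Reference 1, replicates 1 and 2, and 47 and 49 in Reference 2. This count was not made over all mouse miRNAs, so it does not set the 42 apart from them. The 33 with no spot above background lay between 5.13 and 5.62 on the normalized log2 scale, where the array medians were 5.48 to 5.50. miR-708, miR-711, miR-712 and miR-696, which has been studied in muscle, were all among these 33.

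**Figure D1:**
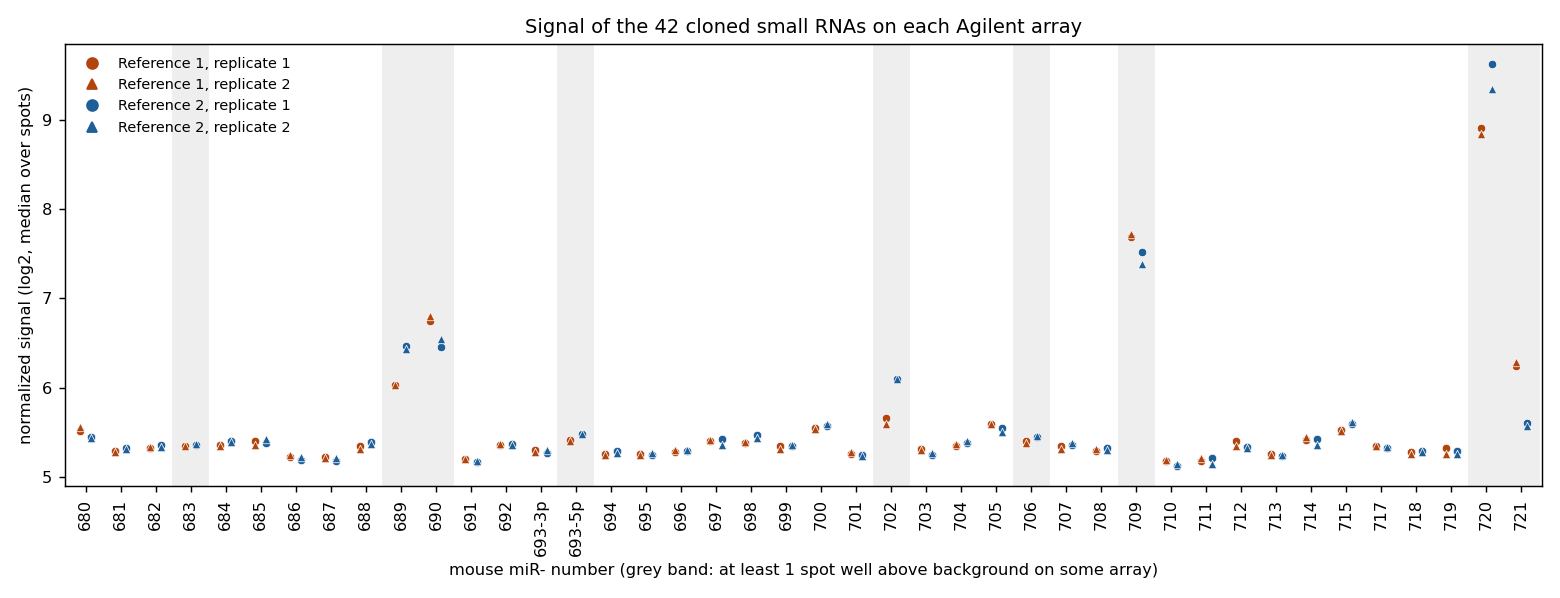
Normalized log2 signal (y axis) of the 42 small RNAs in order of number (x axis), 1 point per array, Reference 1 left of Reference 2, with grey bands for the 9 that had a spot well above background. The other 33 lie between 5.13 and 5.62 on all arrays, while miR-720 reaches 9.62.

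Neighbouring entries were counted in the same way, with no test of the difference. Of the star-less miRNAs just below in number, miR-652 to miR-679, 5 of 25 had a spot above background, and of miR-722 to miR-764, 6 of 14. The array carries 2 probes for some miRNAs and 4 for others, and this moved with detection. All 4 of the small RNAs with 2 probes (miR-689, miR-690, miR-709 and miR-720) were above background, as were 5 of the 38 with 4 probes. Over all mouse miRNAs the shares were 83.6% of those with 2 probes and 15.9% of those with 4. The part of probe number in the detection counts was not tested.

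After cyclic lowess, a smaller share of these small RNAs than of all mouse miRNAs passed the test between pools, and most differences were small. At a Benjamini-Hochberg adjusted p under 0.05 (limma, over 566 miRNAs), 7 of the 42 were higher in Reference 1 and 7 were lower, against 29.3% and 29.9% of all mouse miRNAs. The share called in either direction was 33.3%, against 59.2% of all mouse miRNAs. Among those with a spot above background, 8 of 9 were called, against 255 of 289 over all mouse miRNAs. In this setting no difference exceeded 1 on the log2 scale, although 71 of the other 524 did so. That of miR-721 exceeded 1 with median centering, without normalization and with the processed and total gene signals (the scaled signals), those of miR-680, miR-690 and miR-705 with both scaled signals, and that of miR-706 in size with the total gene signal, where weak values were set to a floor. The median absolute difference was 0.03 for the 42 and 0.10 for the other 524. It was 0.05 both for miR-652 to miR-679 and for miR-722 to miR-764, where 52.0% and 64.3% were called. In these lists of neighbours, 0 of 25 and 3 of 14 differed by more than 1. The values of the pools did not overlap for 28 of the 42, against 79.0% of all mouse miRNAs. With 2 aliquots a side, an exact two-sided permutation test of 1 miRNA cannot go below p = 0.333. The number and split of calls depended on the scaling of the arrays, for all mouse miRNAs too. With median centering 5 were higher and 30 lower, with 498 of 566 mouse miRNAs called. Without normalization 3 were higher and 1 lower, with 237 called. The processed signal gave 5 higher and 1 lower, with 253 called, and the total gene signal gave 5 and 2, with 264 called. Over all mouse miRNAs, 49.6% of calls were higher, against 35.7%, 69.2%, 66.4% and 66.3% in these 4 settings.

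**Figure D2:**
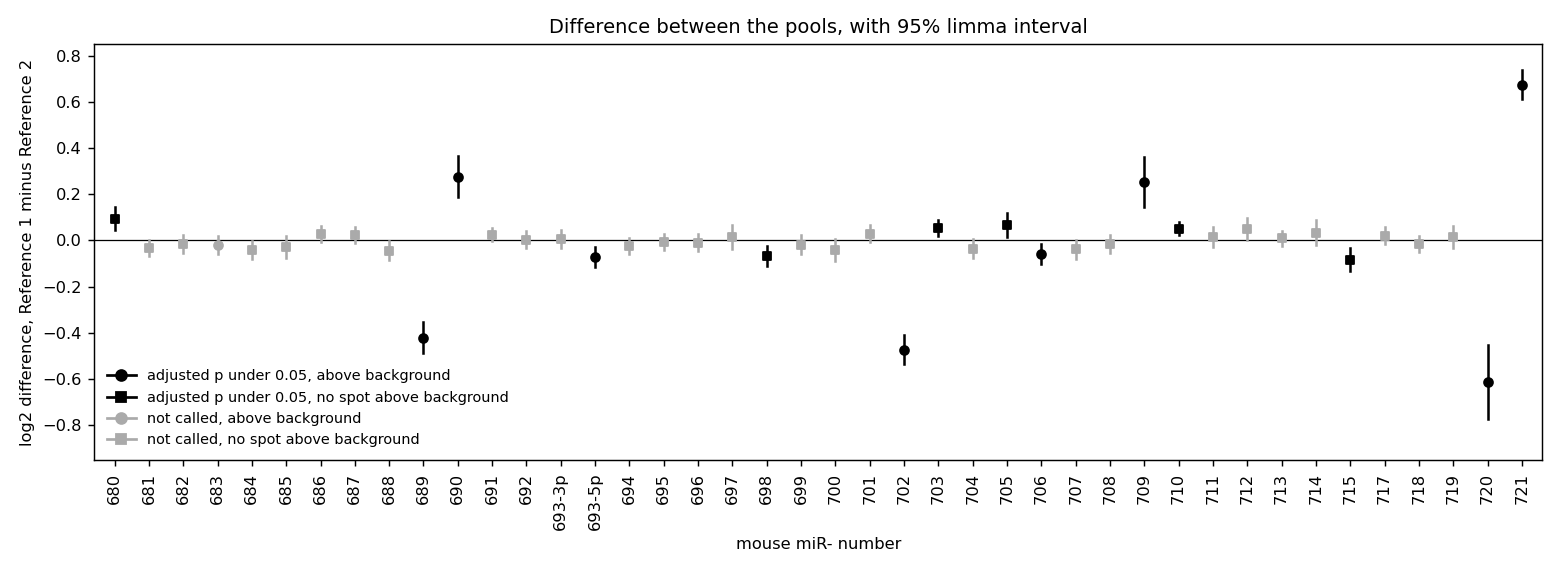
Log2 difference, Reference 1 minus Reference 2 (y axis), for each small RNA in order of number (x axis), with its 95% interval. Black marks passed an adjusted p of 0.05 and circles had a spot above background. The 6 differences that lie farthest from 0 belong to miR-689, miR-690, miR-702, miR-709, miR-720 and miR-721.

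miR-721 had the difference farthest from 0 in the main cyclic lowess setting. That of miR-720 was larger in size in some other settings, other cyclic lowess methods among them. Of the 6 with at least 50% of spots above background, miR-721 was the only one above it in a single pool. Its median spot intensity was 91.3 and 93.5 units in Reference 1, against 40.0 and 40.8 in Reference 2. The normalized log2 values were 6.25 and 6.29 in Reference 1 and 5.61 and 5.57 in Reference 2. The pools did not overlap on this scale. The scanner software called all 20 spots well above background on both Reference 1 arrays and none on either Reference 2 array. The difference was 0.67 ± 0.03 (SE, limma adjusted p = 2.6e-10), and each of its 4 probes gave between 0.65 and 0.71. Because Reference 2 was at background, the ratio is a bound: miR-721 was at least 1.27-fold higher in Reference 1. The bound sets the mean of Reference 1 against the lowest normalized signal among probes with at least 50% of their spots above background in Reference 2. Direction and call held in all 19 other settings, with differences from 0.45 with normexp background correction to 1.19 without normalization, and 5.43 and 5.78 with the processed and total gene signals.

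The seed of miR-721 is that of the broadly expressed miR-130 and miR-301 family. In the sequences below its last bases can be set beside those of the 3p arms of 3 of that family.
mmu-miR-721: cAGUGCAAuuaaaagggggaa
mmu-miR-130a-3p: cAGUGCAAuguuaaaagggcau
mmu-miR-130b-3p: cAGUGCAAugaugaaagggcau
mmu-miR-301a-3p: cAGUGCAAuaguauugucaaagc
The longest run shared with miR-721 was 9 bases in each of the 3. In miR-130a-3p a run of this length lies at the 5′ end and another past the seed. In miR-130b-3p and miR-301a-3p it lies only at the 5′ end. The edit distance, the fewest single-base substitutions, insertions or deletions between 2 sequences, was 5 for miR-130a-3p, 6 for miR-130b-3p and 10 for miR-301a-3p.

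The array entries of this family, whose names carry no arm, did not all differ between pools. miR-130a had log2 values of 9.451 and 9.520 in Reference 1, against 9.504 and 9.568 in Reference 2. Its pools overlapped, and the difference of -0.05 ± 0.05 (SE) did not pass (limma adjusted p = 0.391, 95% interval -0.15 to 0.05). miR-130b had 6.54 and 6.61 in Reference 1, against 6.28 and 6.35 in Reference 2. Its difference was 0.26 ± 0.04 (SE, limma adjusted p = 5.0e-05). For miR-301a the values were 6.093 and 6.101 in Reference 1 and 5.996 and 6.073 in Reference 2, with a difference of 0.06 that did not pass (limma adjusted p = 0.116). Of the spots of miR-301a, 10 were above background on each array. The pool comparisons of this family depended on the scaling. With median centering miR-130a stayed at -0.09 (limma adjusted p = 0.278), while miR-130b was at 0.74 and miR-301a passed at 0.32. Without normalization, in the deposited values, without outlier-marked spots and with the mean of probe medians, miR-301a passed at 0.36, 0.10, 0.17 and 0.11. The processed and total gene signals gave 1.04 and 1.11, which also passed. Quantile normalization turned miR-301a to -0.07 (limma adjusted p = 0.118). The remaining settings that used all 4 arrays gave 0.02 to 0.07 and did not pass. miR-130a passed as lower in Reference 1 in 4 settings, at -0.19 with quantile normalization, -0.28 in the deposited values, -0.37 with the processed signal and -0.39 with the total gene signal. miR-301b had no spot above background on any array. Whether binding of family members to the miR-721 probes has a part in its signal was not tested.

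**Figure D3:**
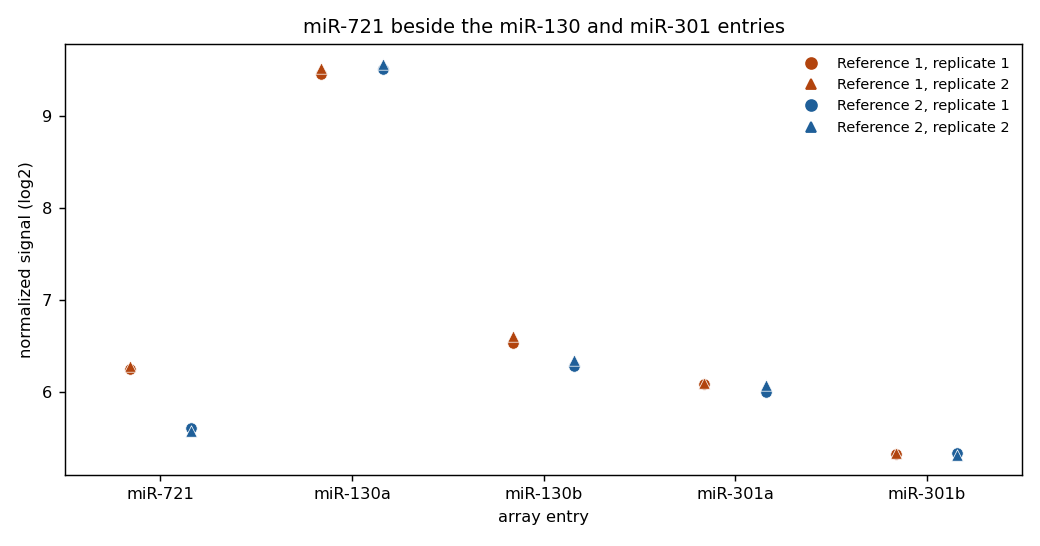
Normalized log2 signal (y axis) of miR-721 and 4 array entries of the miR-130 and miR-301 family (x axis), 1 point per array, Reference 1 left of Reference 2. miR-721 is 0.67 higher in Reference 1, while miR-130a differs by -0.05 and lies near 9.5 in both pools.

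miR-690 was also higher in Reference 1. Its median intensity was 127 and 133 units in Reference 1, against 72.8 and 80 in Reference 2. Normalized log2 values were 6.75 and 6.81 in Reference 1 and 6.46 and 6.54 in Reference 2, with all 20 spots above background on each array. Both probes were higher, by 0.24 and 0.31. The difference was 0.28 ± 0.04 (SE, limma adjusted p = 5.0e-05) and passed in all 19 other settings, which ranged from 0.18 with quantile normalization to 1.13 with the processed signal.

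miR-720 was lower in Reference 1. Its median intensity was 622 and 599 units in Reference 1, against 984 and 830 in Reference 2. Normalized values were 8.90 and 8.84 in Reference 1 and 9.62 and 9.35 in Reference 2. The Reference 2 aliquots stood 0.27 apart, the widest gap between aliquots of the 6, but did not overlap with Reference 1. The difference was -0.61 ± 0.07 (SE, limma adjusted p = 8.4e-06), with its probes at -0.86 and -0.42. These probes, with 10 spots each, stood at 7.62 and 10.06 in Reference 1 and at 8.48 and 10.48 in Reference 2. The median over all spots therefore lies between the levels of the probes. miR-720 is described further by its calls. The difference of miR-720 kept its direction in all 19 other settings, with values from -0.96 to -0.48.

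miR-709, a mouse small RNA described in the nucleus, had probes that moved in opposite directions after cyclic lowess. Its median intensity over all spots was 296 and 297 units in Reference 1, against 186 and 173 in Reference 2. One probe had normalized values of 8.86 and 8.84 in Reference 1, against 8.35 and 8.18 in Reference 2, a difference of 0.59. The other had 6.48 and 6.50 in Reference 1, against 6.69 and 6.62 in Reference 2, a difference of -0.17. All 10 spots of each probe were above background on every array. Single probes were compared after cyclic lowess only, so whether these 2 also part without it was not tested. At levels near the dimmer probe, miR-690 and miR-689 differed by 0.28 and -0.42 after cyclic lowess. Without normalization they differed by 0.77 and 0.12. The median over both gave 0.25 ± 0.05 (SE, limma adjusted p = 0.00066), and 0.56 with median centering. This value turned to -0.11 (limma adjusted p = 0.0787) once outlier-marked spots were left out, which kept 9 spots of the dimmer probe and 8 of the brighter one. The median over spots then rested on more spots of the dimmer probe, whose own difference was -0.17.

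miR-689 and miR-702 were lower in Reference 1 after cyclic lowess, but not in the raw intensity. miR-689 had median intensities of 80 and 78.5 units in Reference 1, against 72.5 and 73.5 in Reference 2, so before normalization Reference 1 was the higher. Normalized log2 values were 6.03 and 6.03 in Reference 1 and 6.46 and 6.44 in Reference 2, a difference of -0.42 ± 0.03 (SE, limma adjusted p = 5.0e-08). The difference turned to 0.08 with median centering, 0.12 without normalization, 0.11 with the processed signal and 0.02 with the total gene signal, none of which passed.

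miR-702 had median intensities of 60.5 and 55.0 units in Reference 1, against 57.3 and 59.8 in Reference 2, and here the pools overlapped. After cyclic lowess the values were 5.66 and 5.60 in Reference 1 and 6.10 and 6.10 in Reference 2, with a difference of -0.47 ± 0.03 (SE, limma adjusted p = 1.0e-08). All 4 probes gave differences from -0.51 to -0.40. Only 10 to 12 of its 20 spots were above background on any array. The difference was -0.06 with median centering (limma adjusted p = 0.110) and -0.02 with no normalization (limma adjusted p = 0.839). It did not pass with the processed signal or the total gene signal either. Quantile normalization kept both calls, at -0.43 for miR-689 and -0.46 for miR-702, and so did the deposited values, at -0.26 and -0.28.

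**Figure D4:**
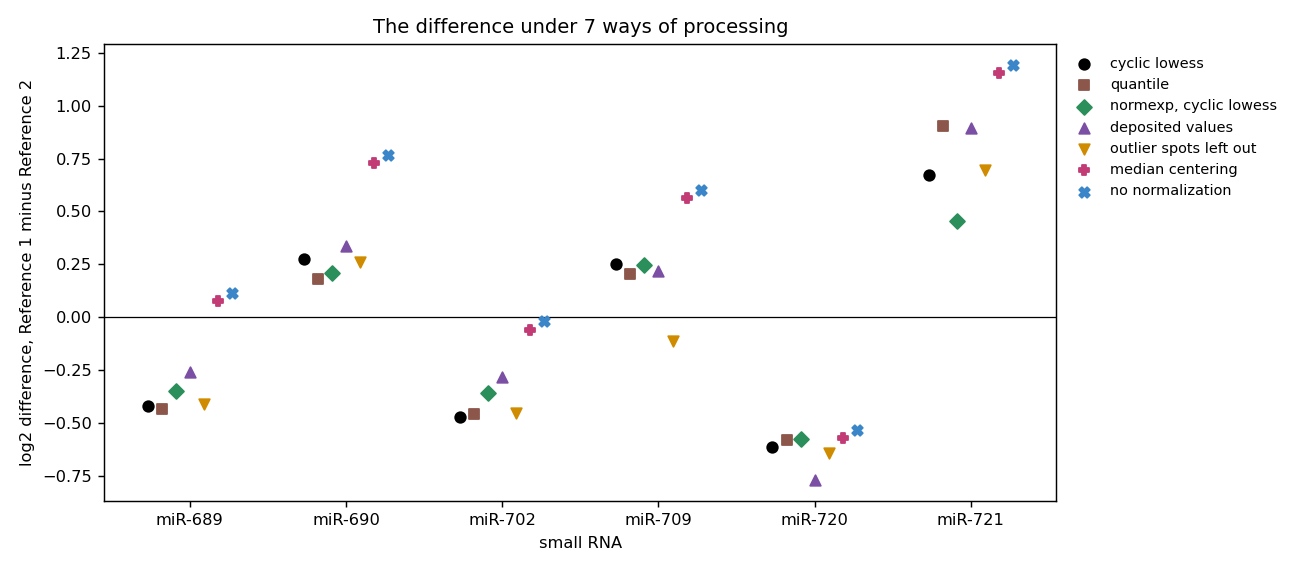
Log2 difference, Reference 1 minus Reference 2 (y axis), of 6 small RNAs (x axis) under 7 ways of processing. miR-690 and miR-721 stay above 0 and miR-720 below 0, while miR-689 crosses 0 with median centering and with no normalization and miR-709 crosses 0 without outlier spots.

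Of the 3 remaining small RNAs with any spot above background, miR-706 held its signal in a single probe. After cyclic lowess, that probe had log2 values of 5.49 and 5.53 in Reference 1, against 6.32 and 6.42 in Reference 2, a difference of -0.86. The size of this difference in other settings was not computed. All 5 of its spots were above background on both Reference 2 arrays, with 0 and 2 on the Reference 1 arrays. The other 3 probes had no spot above background, and gave differences from -0.14 to -0.0046. The median over all 20 spots was 5.40 and 5.39 in Reference 1 and 5.45 and 5.46 in Reference 2, and its difference of -0.06 (limma adjusted p = 0.0178) does not show the single probe.

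miR-683 and miR-693-5p had 1 spot of 20 above background on 1 array each. miR-683 did not pass, at -0.02 (limma adjusted p = 0.402). miR-693-5p had values of 5.41 and 5.41 in Reference 1, against 5.49 and 5.48 in Reference 2. Its difference of -0.07 passed (limma adjusted p = 0.0064) at a level where both pools were at background.

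**Figure D5:**
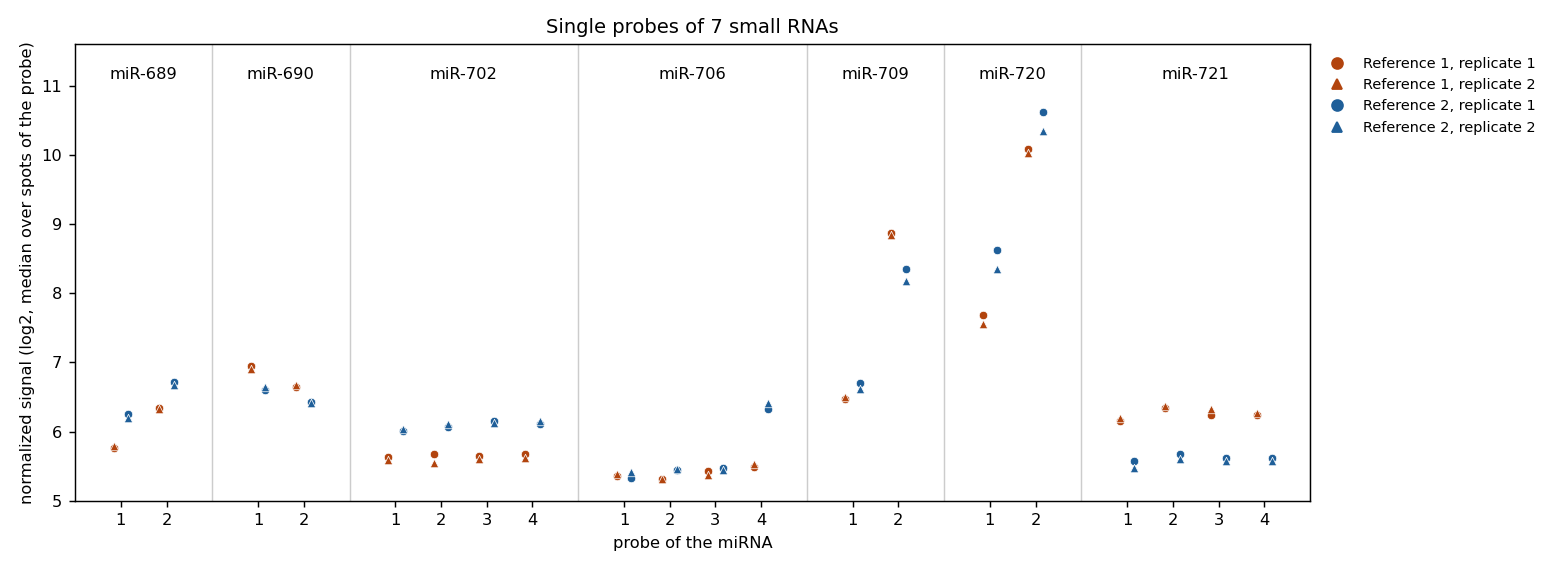
Log2 signal after cyclic lowess (y axis) of each probe (x axis) of 7 small RNAs, 1 point per array, Reference 1 left of Reference 2. Single probes were not compared in other settings. The 4 probes of miR-721 and of miR-702 keep together, the probes of miR-709 go opposite ways (-0.17 and 0.59), and only the last probe of miR-706 leaves the range of background, with a difference of -0.86.

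A further 6 small RNAs passed the test with no spot above background on any array. miR-680, miR-703, miR-705 and miR-710 were higher in Reference 1, by 0.09, 0.05, 0.07 and 0.05 on the log2 scale. miR-698 and miR-715 were lower, by -0.07 and -0.08. The replicate spread at this level is small, so differences under 0.1 log2 units passed, and no fold is given because both pools were at background. For miR-705, 4 and 9 of 20 spots exceeded the negative control threshold on the Reference 1 arrays, against none on the Reference 2 arrays. For miR-715, called lower in Reference 1, the spots ran the other way, with 6 and 6 over the threshold on the Reference 1 arrays against 1 and 4 on the Reference 2 arrays. Apart from miR-680, each of these calls was lost or turned in at least 4 of the settings that gave a value.

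The 28 other small RNAs, miR-683 among them, did not pass. Their differences ran from -0.04 to 0.05, with 13 above 0 and 15 below, and their 95% intervals lay within -0.09 and 0.10. Because background was not subtracted, such intervals understate what change in RNA the arrays could miss for probes at background. For miR-708 the values were 5.29 and 5.32 in Reference 1, against 5.33 and 5.31 in Reference 2, and the pools overlapped. miR-693-3p, the other arm of the miR-693 hairpin, which lies within the gene of the miRNA exporter Xpo5, had 5.31 and 5.28 in Reference 1 and 5.27 and 5.31 in Reference 2.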

How the data were processed

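Total RNA was labelled with Cy3 and hybridized to Agilent mouse miRNA arrays, and the deposited scanner files (Agilent Feature Extraction 9.5.3.1 per the labels) hold spot intensity that is not yet normalized. Median signals of 11540 non-control spots per array, without background subtraction, were taken as log2, brought together by cyclic lowess after the study's methods, and then summarised per miRNA by the median of its spots. The methods do not name the lowess settings. In all, 21 settings were run, each with and without a robust variance step, and their calls were seen before 1 was kept. It was the limma "affy" method with 3 iterations and span 0.7, which averages the adjustments against all other arrays as the methods describe, and was not picked for its calls. The authors' deposited log2 values correlated with it at 0.999 or more (Pearson, lowest array, 560 miRNAs).

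Pools were compared with limma 3.58.1 in R 4.3.3 (intensity trend, Benjamini-Hochberg over 566 mouse miRNAs). Every member above background on any array, or past the threshold, was named. The negative control threshold was the mean plus 3 SD of 288 control spots, trimmed by 5% at each end. The 10 viral entries entered the normalization only. Fits were tested on simulated data. Members and lists were chosen with earlier results of these data known. The other platforms were not used here, since their probes carry no miRNA names. No spot was saturated, and 2 arrays per pool limit the precision.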

Additional observations from a re-analysis of the deposited data

How the results depend on the processing

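miR-690, miR-720 and miR-721 kept direction and call in all 19 alternatives. The number of the 42 small RNAs higher in Reference 1 was 7. It became 3 with no normalization, 4 with quantile normalization and 12 in the deposited values. When only miRNAs above background were tested, it was 3 of 9. Over all miRNAs the number higher was 166, and became 164, 156, 183 and 138 of 289 in the same order. The number lower was 7, and became 30 with median centering, 1 with no normalization, 13 with quantile normalization, 1 with the processed signal, 2 with the total gene signal and 11 in the deposited values. Over all miRNAs the number lower was 169, and became 320, 73, 205, 85, 89 and 194 in the same order. The median difference of the 42 was -0.01. It became -0.0736, -0.0340 and -0.0181 with median centering, no normalization and quantile normalization, and -0.0596 over those above background. With either scaled signal it was 0, where 32 and 31 of the 42 were at the floor. Leaving out 1 array at a time gave 4 to 7 higher, 6 to 8 lower, 298 to 326 calls over all miRNAs and medians from -0.0076 to -0.0020. The count of 4 higher came without Reference 1 replicate 1. Every spot was over the negative control threshold on all 4 arrays for 4 of the small RNAs, a count not made over all mouse miRNAs.

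The difference of miR-689 turned to 0.0757, 0.115, 0.107 and 0.0166, and that of miR-709 to -0.11, as given above. At background, miR-703 turned to -0.0311 and miR-710 to -0.0447 with median centering, miR-710 to -0.0050 with no normalization, and miR-715 to 0.52 with the processed signal and 0.16 with the total gene signal. The cause was not tested. Chosen after seeing the data, the limma fast method gave 7 higher and 7 lower. The pairs method, which depends on the order of arrays, gave 8 and 7, or 6 and 4 in another order. Over all miRNAs these were 166 and 171 for fast, and 169 and 160, or 153 and 134, for pairs. The count with at least 50% of spots above background was also added after seeing the data. Over the 21 lowess settings, with and without the robust step, 3 to 12 were higher, 3 to 12 lower and 231 to 381 miRNAs were called in all. Replicate numbers carried no pairing (correlation of deviations 0.07). A replicate block gave 8 higher and 8 lower, with 170 and 178 over all miRNAs. The crossed pairing, also chosen after seeing the data, gave 8 and 7, with 169 and 177 over all miRNAs.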

Other observations

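The starred entries that the rule left out were also at background. miR-708* had normalized log2 values of 5.32 and 5.32 in Reference 1, against 5.33 and 5.33 in Reference 2. miR-712* had 5.36 and 5.33 in Reference 1, against 5.35 and 5.35 in Reference 2. Neither had a spot above background on any array.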
